A study of Mus musculus with 2 samples.

Results

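Cells of the injured mouse kidney that carried transcripts of Fst, Slc14a2, Slc4a11 or Psca, a marker set for the descending thin limb of the loop of Henle, numbered 928 of 19478 cells. A cell was selected when its unique molecular identifiers (UMIs, each standing for 1 captured transcript) of these 4 genes summed to at least 4, with under 5 UMIs of Slc12a1 and of Slc12a3 and no UMI of Ptprc, the transporters and the leukocyte antigen of other kidney cells. The selected cells comprised 400 of 9452 cells from a Cre- kidney preparation (control) and 528 of 10026 cells from a Cdh5-CreERT2; Phd3f/+ preparation (haplodeficient). In the latter, 1 floxed allele of Phd3, the gene now called Egln3, was combined with a tamoxifen-inducible Cre driven by the Cdh5 promoter, which is active in endothelium, so the tubule cells described here were not the stated target of the deletion. Both preparations came from kidneys taken on day 14 after clamping of 1 renal artery and reperfusion (ischemia reperfusion injury, IRI), and both received 4 tamoxifen injections. Whether Cre- mice carried a floxed allele, and how many animals stood behind a library, was not given in the sources used here. The protocols name a cell-hashing library, which can mark pooled animals, but its tags were not used here. With a single library in each group (1 and 1), differences had no replicate to be checked against, no test between groups was possible, and every interval in parentheses is a 95% interval for counting error only.

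The descending thin limb is the stretch of the loop of Henle that leaves the proximal tubule and runs into the medulla. Its cells are flat and rich in the water channel Aqp1 in long loops, and they let water leave, and in short loops take up urea through Slc14a2, as the filtrate is concentrated. Cells of the medulla live in a hypertonic surround and hold organic osmolytes, made or carried by genes such as Akr1b3 and Slc6a6, and small heat shock proteins such as Cryab. Of the selection genes, Fst encodes follistatin, a secreted inhibitor of activins, Slc4a11 a membrane transporter of the bicarbonate transporter family, and Psca a small surface protein anchored by a lipid, also made by the lining of the urinary tract.

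The libraries held 134190236 (control) and 114668145 (haplodeficient) UMIs. The selected cells were deeper than the rest, which a fixed threshold of 4 UMIs favours, and deeper in the control library. Their median cell had 17236.5 UMIs and 4852.5 genes in the control library, against 11697 UMIs and 3937.5 genes in the haplodeficient library. Mitochondrial UMIs made up a median of 4.87% (control) and 2.92% (haplodeficient) of their UMIs, whereas in all other cells it was 10.9% and 2.72%. No barcode of a selected cell occurred in both libraries, although 28 barcodes of all kept cells did. A doublet score marked 10.25% of selected control and 9.09% of selected haplodeficient cells as likely mixtures of cells, against 7.45% and 7.96% of other cells. Levels are given as CPM, the UMIs of a gene scaled to a fixed sum over all UMIs of the cells, so that libraries of unequal depth can be set side by side.

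Of the 4 selection genes, only 1 was detected in 46.75% of selected control and 45.3% of selected haplodeficient cells, and all 4 were detected in 20 and 17 cells. When each cell was assigned to the selection gene with most UMIs, Psca led 222 control cells, or 55.5% (50.5 to 60.4), and 306 haplodeficient cells, or 58.0% (53.6 to 62.2). Slc14a2 led 87 cells (21.75%) and 96 cells (18.2%), Fst led 51 cells (12.75%) and 70 cells (13.3%), and Slc4a11 led 30 cells (7.5%) and 41 cells (7.77%). The remaining 10 and 15 cells had a tie. The doublet score marked 11 of 51 control and 7 of 70 haplodeficient Fst-led cells, and 3 of 30 and 9 of 41 Slc4a11-led cells. It marked 7 of 87 and 10 of 96 Slc14a2-led cells, and 19 of 222 and 21 of 306 Psca-led cells. Slc4a11 accompanied Fst, being found in 82.2% of control cells with a Fst UMI and 40% of those without. Slc14a2 and Psca stood apart, since Psca was found in 43.9% of control cells with a Slc14a2 UMI and 85.3% of those without. The same pairs gave 72.7% and 33.4%, and 41.2% and 85.9%, in the haplodeficient library. A cell with little of 1 gene had to carry another to be selected, so the second pattern is in part set by the selection. Both patterns are drawn from the genes that chose the cells and are a description. Median depth was 19223 and 13088.5 UMIs in Fst-led cells and 14958 and 11043.5 UMIs in Psca-led cells. The part of depth in the first pattern was not tested.

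**Figure D1:**
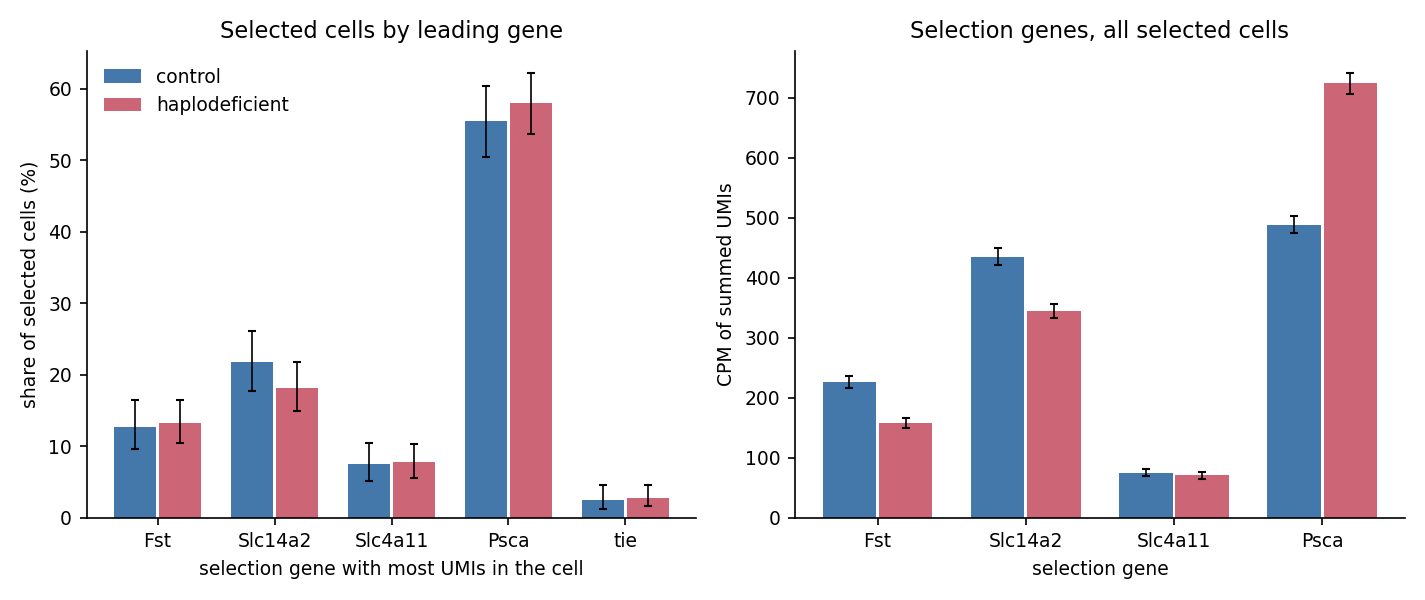
Left, share of selected cells (%) led by each selection gene in the control (blue) and haplodeficient (red) library, with exact 95% binomial intervals. Right, CPM of each selection gene over all selected cells, with exact 95% Poisson intervals. Psca-led cells were the most numerous in both libraries.

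Because these genes chose the cells, their levels are a description. Psca (chr15:74714839-74717069, plus strand, GRCm38) was at 488 CPM of the selected cells' summed UMIs in control and 724 CPM in haplodeficient cells, and Slc14a2 at 435 and 345 CPM. Fst (chr13:114452290-114458951, minus strand) was at 227 and 158 CPM and Slc4a11 (chr2:130684113-130697519, minus strand) at 74.6 and 70.6 CPM. All other kept cells had 46.9 and 68.3 CPM of Psca, and under 10 CPM of each of the other 3 genes. Near the threshold, 47 control and 59 haplodeficient cells were selected with exactly 4 UMIs, and 49 and 69 cells with 3 UMIs were left out. These 2 sets had median depths of 10932 and 11061 UMIs (selected) and 10757 and 7310 UMIs (left out). A further 213 control and 313 haplodeficient cells had the 4 UMIs but were left out for Slc12a1 (154 and 230 cells), Slc12a3 (30 and 15) or Ptprc (62 and 112), some for more than 1 of these.

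The label of descending thin limb was then set against 10 markers of that segment that the selection did not use. All 10 were above the level of other cells in the control library and 9 in the haplodeficient library. Their summed level was 3278 and 3379 CPM in selected cells and 842 and 1275 CPM in other cells. Cryab made up most of it, at 1819 and 2049 CPM against 218 and 410.1 CPM in other cells. Bst1, a surface enzyme that uses NAD, was at 155 (146 to 163) and 207 (198 to 216) CPM against 8.87 and 19.97 CPM. Aqp1 (chr6:55336432-55348555, plus strand), the water channel of the segment in long loops, was not shared among the selected cells. It was at 878 CPM in Fst-led, 245 in Slc4a11-led, 119 in Psca-led and 15.9 in Slc14a2-led control cells, and at 277, 106, 30.96 and 24.1 CPM in the same order in the haplodeficient library, where other cells had 131 and 61.1 CPM. Aqp1 was thus above the level of other cells in Fst-led and Slc4a11-led cells of both libraries and below it in Slc14a2-led and Psca-led cells. In this marker the data go against a long-loop label for Slc14a2-led and Psca-led cells. Low Aqp1 does not speak against short loops, so this marker does not decide the label for Slc14a2-led cells. Part of the Slc14a2-led cells also carried collecting duct genes, described below. At least 5 UMIs of Aqp2, a collecting duct gene, were found in 16 control and 9 haplodeficient Slc14a2-led cells. In these cells that marker goes against a descending thin limb label. The cells are called here by the selection genes.

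**Figure D2:**
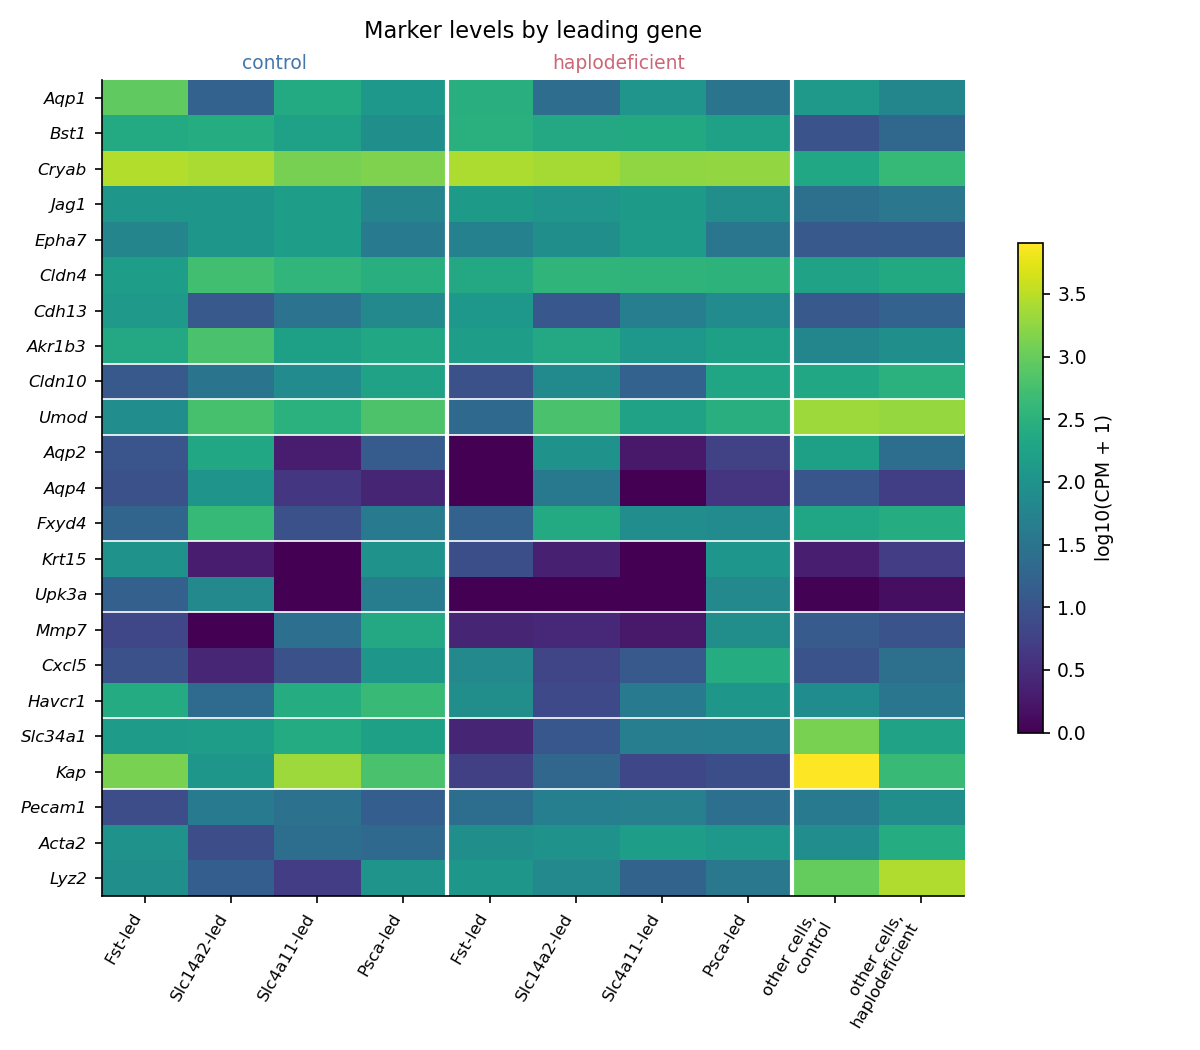
Marker levels as log10(CPM + 1) in selected cells grouped by leading gene, for the control library, the haplodeficient library and, at the right, all other cells of each library. From top to bottom the blocks hold markers of the descending thin limb, thin ascending limb, thick ascending limb, collecting duct, urothelium, Mmp7, Cxcl5 and the injury gene Havcr1, proximal tubule, and other cell types. Aqp1 was highest in Fst-led cells and Aqp2 in Slc14a2-led cells of both libraries.

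For each group, genes were taken as the highest over the other selected cells in both libraries, which does not place them above other kidney cells. Fst-led cells had Aqp1, Rbfox1, an RNA-splicing factor, at 320.4 and 187 CPM, Ackr3, a scavenging chemokine receptor, at 179 and 147 CPM, the matrix gene Fn1 at 306 and 162 CPM, and Cntf, a neurotrophic cytokine, at 183 and 348 CPM. In the other groups Cntf lay between 14.3 and 121 CPM. Slc14a2-led cells had Spink8 at 957 and 516 CPM, Fxyd4, a regulator of the sodium pump in the collecting duct, at 407 and 240.3 CPM, and Phactr1, Pde1a and Tenm3. The same cells held Aqp2, the vasopressin-regulated water channel of the collecting duct, at 210.04 and 102 CPM, against at most 12.7 CPM in any other group, and 16 of 87 control and 9 of 96 haplodeficient cells had at least 5 Aqp2 UMIs. Aqp4, the basolateral water channel of the same cells, was at 103 and 37.1 CPM there. Phactr1 was at 279 and 187 CPM in Slc14a2-led cells, below the 355 and 300 CPM of other cells. Fxyd4 was above other cells in the control library (198 CPM) but below them in the haplodeficient library (260 CPM). The 8 markers of principal and inner medullary collecting duct cells summed to 811 and 419 CPM in Slc14a2-led cells, against 845 and 663 CPM in other cells of the libraries.

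Slc4a11-led cells had Slc7a12, an amino acid transporter, at 259.6 and 103 CPM, the ephrin receptor Epha7 at 155 and 136 CPM, Gdf15, a stress-induced cytokine, at 461 and 538 CPM, and Spns2 and Ttc36. Psca-led cells had the matrix protease Mmp7 at 226 and 83.4 CPM, the neutrophil chemokine Cxcl5 at 117 and 265 CPM, Olfm4 at 123 and 73.3 CPM, the complement component C3 at 649 and 256 CPM, and the chemokine Ccl5 at 144 and 178 CPM. For Ccl5, other cells had 48.9 and 300.2 CPM and the free RNA, transcripts outside cells, 47.3 and 337 CPM. In the haplodeficient library Ccl5 was thus below both in Psca-led cells. Ttc36, at 171 and 66.6 CPM in Slc4a11-led cells, was below other cells (539 and 111 CPM) and free RNA (647 and 174 CPM). Cldn10, a paracellular channel gene of the ascending limbs, was at 179 and 193 CPM in Psca-led cells and at or under 74.8 CPM in the other groups, but at 214 and 313 CPM in other cells of the libraries. Umod, the uromodulin gene of the thick ascending limb, had at least 5 UMIs in 108 of 400 control and 110 of 528 haplodeficient selected cells, of which 69 and 65 were Psca-led and 25 and 36 Slc14a2-led. Its level was 515 and 279 CPM in selected cells, 2158 and 1917 CPM in other cells, and 1403 and 1182 CPM in the free RNA. All 8 urothelial markers were above other cells in both libraries, summing to 149.9 and 150.3 CPM in selected cells against 6.8 and 12.1 CPM. In the haplodeficient library that signal lay in Psca-led cells, at 262.0 CPM against at most 21.6 in the other groups, but in the control library it was 196 CPM in Psca-led, 145 in Fst-led and 102 in Slc14a2-led cells. It came from few cells, as 10 selected cells of each library had at least 5 UMIs of the uroplakins Upk1a, Upk1b, Upk2 and Upk3a, and Krt15, a basal keratin, was detected in 14 and 23 cells.

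Beyond the selection genes, the genes most raised in the selected cells over all other cells in both libraries included Bst1, Krt15, Cntf, Cryab and Cxcl5, described above. Nupr1, a stress-induced nuclear protein, was at 1368 and 2104 CPM against 132 and 297 CPM in other cells. Ankrd1, a target of mechanical strain signalling, was at 200.05 and 272 CPM against 19.98 and 37.1 CPM, and Slc34a2, a phosphate transporter of other epithelia, at 124 and 129 CPM against 15.4 and 12.9 CPM. The adhesion receptor Adgra1 was at 75.3 and 99.6 CPM against 5.10 and 10.03 CPM, and Scel, which encodes a protein of cornified epithelia, at 80.4 and 66.4 CPM against 10.1 and 9.81 CPM. Pgm5, Arc, Proser2, Prr15 and the interferon-induced gene Ifit3 also belonged to this set. Spp1, the osteopontin gene and the most abundant of all the injury genes examined, stood at 18150.2 and 20245 CPM against 8919 and 10373 CPM in other cells.

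The selected cells made up 4.23% (3.83 to 4.66) of all control cells and 5.27% (4.84 to 5.72) of all haplodeficient cells. Outside the selection, a Ptprc UMI was found in 1651 control and 4029 haplodeficient cells, so the share was also taken without such cells. Among cells without a Ptprc UMI it was 5.13% (4.65 to 5.64) and 8.80% (8.10 to 9.55). When cells with at least 5 UMIs of Slc34a1, Lrp2 and Slc27a2, 3 proximal tubule genes, were left out as well, it was 7.50% (6.72 to 8.33) and 9.40% (8.63 to 10.2), a difference of 1.90 percentage points (0.767 to 3.02). The limit of 50% mitochondrial UMIs per cell had removed 574 control and 30 haplodeficient barcodes. With a limit of 25% in its place, the shares over all cells were 5.26% and 5.33%. The difference without Ptprc-positive and proximal tubule-positive cells was then 0.979 points (-0.251 to 2.19), an interval that includes 0. Cells with at least 2000 UMIs were also thinned to 2000 UMIs each and selected at a threshold lower than 4 UMIs. Over the thinned cells the shares were 2.67% and 4.04%, which are not shares under the main rule.

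To compare the libraries gene by gene, UMIs were summed over the selected cells, expressed as CPM, and set as a log2 ratio of haplodeficient over control after adding 5 CPM, which understates the ratio of low genes. Of 3792 genes with a mean of at least 50 CPM, 1899 were higher and 1893 lower in the haplodeficient library, with a median log2 ratio of 0.00. A gene was said to meet the size rule when its log2 ratio was at least 1 in size and its 95% intervals did not overlap. That held for 21 higher genes (0.554%) and 47 lower genes (1.24%). Among the higher genes were 6 interferon-stimulated genes, the MHC class I gene H2-D1, the chemokines Cxcl5 and Cxcl2 and the smooth muscle genes Acta2 and Tagln. All 4 eligible markers of the proximal tubule, of 9 on the list, were among the lower ones. Each was under 50 CPM in the haplodeficient library and reached the mean of 50 CPM through the control library. Their direction was thus in part set by this filter. The same holds for every other eligible gene that lay under 50 CPM in 1 of the libraries.

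**Figure D3:**
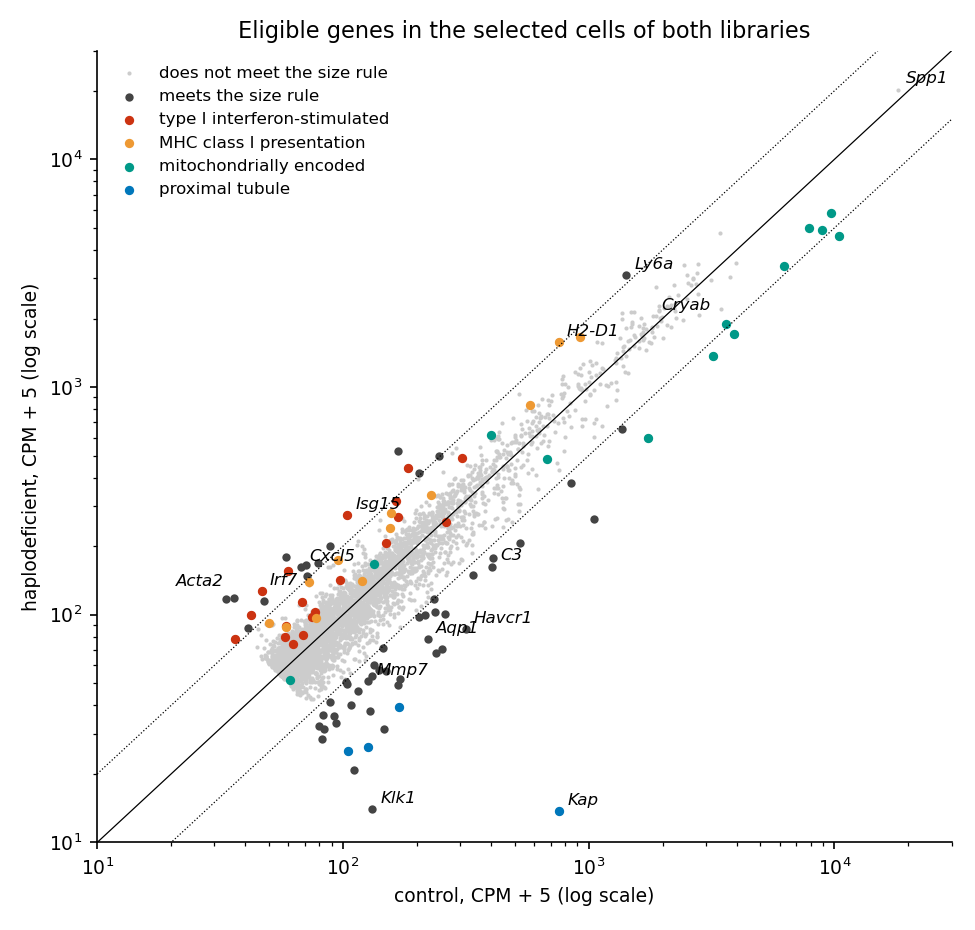
CPM + 5 of each of the 3792 eligible genes in the selected cells of the control (x axis) and haplodeficient (y axis) library, both on log scales. The solid line marks equality and the dotted lines a ratio of 2. Above the line lay 18 of 19 interferon-stimulated and 12 of 12 MHC class I genes, and below it 4 of 4 proximal tubule markers and 11 of 13 mitochondrially encoded genes.

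Interferon-stimulated genes were the most numerous named group among the higher genes. Of 40 genes on the list, 19 were eligible, and the others are not counted here. Of the 19 eligible genes, 18 were higher and 1 lower, and 6 met the size rule upward and none downward. The median log2 ratio of the 19 was 0.68 against 0.00 over all eligible genes. Isg15, a ubiquitin-like protein attached to targets during interferon responses, had 98.7 CPM (92.3 to 105) in control and 269.5 CPM (259 to 280.2) in haplodeficient cells. Irf7, the transcription factor that amplifies type I interferon production, was at 41.7 CPM (37.6 to 46.2) and 122 CPM (115 to 129). Iigp1, an interferon-inducible GTPase, was at 54.5 and 149.98 CPM, Ifitm3, which blocks viral entry, at 179 and 438 CPM, Ifit1, which binds foreign RNA, at 37.1 and 94.6 CPM, and Xaf1 at 31.3 and 73.6 CPM. The intervals of the libraries did not overlap for any of these 6 genes. Irf7, Ifit1 and Xaf1 lay below the eligibility mean in the control library and reached it through the haplodeficient library. The direction of Irf7, Ifit1 and Xaf1 was thus in part set by this filter. Isg15, Iigp1 and Ifitm3 were above that mean in both libraries. Bst2, the tetherin gene, was at 159 and 312 CPM, just under the size rule at a log2 ratio of 0.95, and Irf1, a transcription factor that type II interferon also induces, was at 258 and 249.8 CPM.

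The difference was not alike across the selected cells. The median log2 ratio of the list was 1.20 in Slc4a11-led, 1.08 in Fst-led, 0.59 in Psca-led and 0.22 in Slc14a2-led cells. In Fst-led cells Isg15 was at 22.8 and 238 CPM and Irf7 at 13.9 and 94.1 CPM. In Slc14a2-led cells Isg15 was at 193 and 240.3 CPM. Outside the selected cells, the same genes had median log2 ratios of 1.24 in thick ascending limb cells, 0.51 in principal cells and 0.51 in proximal tubule cells, where all eligible genes had medians of 0.16, 0.06 and 0.28. Isg15 was at 30.6 CPM in the free RNA of the control and 157 CPM in that of the haplodeficient library, and after subtraction of the expected free RNA its log2 ratio was 1.29. Irf7, Isg15 and Iigp1 met the size rule under each of the 15 alternatives run on it. Ifitm3 (0.65) and Xaf1 (0.97) fell short after the free RNA was subtracted, and Ifit1 (0.97) when each cell was weighted alike.

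**Figure D4:**
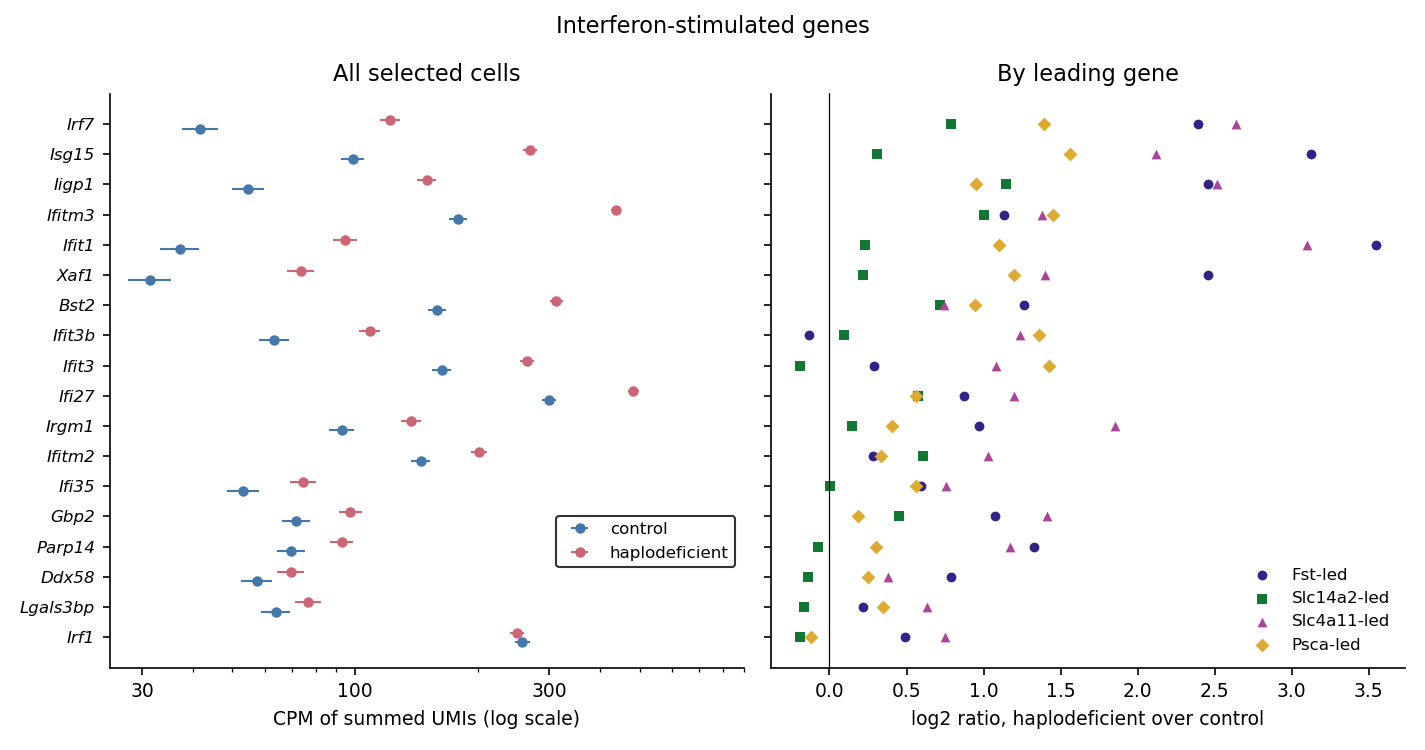
Left, CPM of 18 of the 19 eligible interferon-stimulated genes in the selected cells of each library with exact 95% Poisson intervals (log scale), ordered by log2 ratio. Right, the log2 ratio of haplodeficient over control within cells led by each selection gene. The median over the 19 genes was 0.22 in Slc14a2-led and 1.08 in Fst-led cells.

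The promoters of interferon-stimulated genes often hold an interferon-stimulated response element, to which factors of the IRF family bind. The core GAAANNGAAA was searched on both strands, overlaps included, in the 250 bases before each start site of RefSeq (GRCm38.p6). It was found in 3.46% of 27025 genes with such a window, in 3.01% of eligible genes, and in 8 of the 15 eligible interferon-stimulated genes that had a window. These were Isg15, Ifit1, Ifit3, Ifit3b, Bst2, Ifitm2, Gbp2 and Irgm1. Among the 5 genes that met the size rule and had a window, Isg15 and Ifit1 held it, and Irf7, Ifitm3 and Xaf1 did not hold these letters. It was also found in 3 of 12 eligible MHC class I genes. The 160 bases before the start of Isg15 (chr4:156200819-156200978, minus strand), Ifit1 (chr19:34640729-34640888, plus strand) and Ifit3 (chr19:34583369-34583528, plus strand) are shown 5′ to 3′, with the matches in capitals, because the first 2 were among the most raised genes and Ifit3 was among those highest over other kidney cells.
Isg15: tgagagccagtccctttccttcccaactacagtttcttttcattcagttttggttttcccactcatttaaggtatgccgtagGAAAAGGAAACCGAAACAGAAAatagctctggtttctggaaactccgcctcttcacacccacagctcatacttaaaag
Ifit1: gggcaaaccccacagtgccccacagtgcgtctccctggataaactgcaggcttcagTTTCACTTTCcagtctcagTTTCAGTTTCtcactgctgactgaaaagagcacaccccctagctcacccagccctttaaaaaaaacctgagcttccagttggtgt
Ifit3: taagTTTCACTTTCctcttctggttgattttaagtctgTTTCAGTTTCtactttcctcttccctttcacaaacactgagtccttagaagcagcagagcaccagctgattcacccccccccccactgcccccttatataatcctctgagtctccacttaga
Isg15 had 3 overlapping matches in 1 run, while Ifit1 and Ifit3 each had a pair of separate matches on the opposite strand. Reads of Ifit3 and its close copy Ifit3b may be shared between them. A match is a description of the sequence and was not tested for binding.

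Genes of antigen presentation to CD8 T cells were higher in the selected cells and outside them. All 12 eligible MHC class I genes were higher, with a median log2 ratio of 0.73, and 1 of them, H2-D1, met the size rule at 749.8 CPM (732 to 768) and 1575 CPM (1550.2 to 1601). H2-K1 was at 919.9 and 1647 CPM, the light chain B2m at 574 and 825 CPM, and the immunoproteasome subunit Psmb8 at 152 and 276 CPM. The classical and nonclassical H2 genes are near-identical in places, so their reads may be split among them. Ly6a, an interferon-inducible surface antigen, was at 1417 CPM (1393 to 1442) and 3108 CPM (3072 to 3143). Its log2 ratio of 1.13 was 0.93 without the cells described below that carried proximal tubule transcripts. In Fst-led cells it was at 995 and 2904 CPM and in Psca-led cells at 1688 and 3211 CPM. The class I median was 0.70 or higher in Fst-led, Slc14a2-led and Slc4a11-led cells and 0.59 in Psca-led cells. Outside the selected cells it was 0.83 in thick ascending limb, 0.80 in principal and 0.95 in proximal tubule cells. The 17 genes of the list summed to 3366 and 5839 CPM in selected cells. Their sums were 2249 and 4760 CPM in other cells and 1905 and 4478 CPM in the free RNA.

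MHC class II genes went the other way over all selected cells, but not in each group. All 4 eligible class II genes were lower (median -0.60) and none met the size rule. Cd74, the invariant chain, was at 510.3 and 301 CPM. Psca-led cells carried this difference, with 819.9 and 357 CPM of Cd74 and a median of -1.11, whereas the median was 0.91, 0.93 and 0.55 in Fst-led, Slc14a2-led and Slc4a11-led cells. Without Psca-led cells the list's median was 0.44. The 8 leukocyte markers, none at 0 in either library, summed to 198 and 93.1 CPM in Psca-led cells and to 146 and 145 CPM in all selected cells. The part of leukocyte RNA in the class II values was not tested.

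Proximal tubule genes were among the lowest. Kap, an androgen-regulated proximal tubule gene, was at 753 and 8.74 CPM, Slc34a1, a phosphate transporter, at 165 and 34.3 CPM, Slc27a2, a fatty acid transporter, at 121 and 21.2 CPM, and the endocytic receptor Lrp2 at 100.2 and 20.1 CPM. Acsm2, Slc13a1, Cltrn, Cyp2j5, Gpx3 and Gcnt1, all with levels of 196 CPM or more in the free RNA of the control library, had log2 ratios between -2.23 and -1.52. The 9 proximal tubule markers summed to 1311 and 112 CPM in selected cells, with 1 marker at 0 in the haplodeficient library, and to 14904 and 1075 CPM in the free RNA. At least 5 UMIs of Slc34a1, Lrp2 and Slc27a2 were found in 83 selected control cells (20.75%) and 19 haplodeficient cells (3.60%). Without those cells, 20 genes met the size rule upward and 23 downward, and 14 of the 23 were among the 47. The subtraction of expected free RNA took more than the level of Kap, Acsm2, Slc34a1 and Gpx3 in both libraries, and of Lrp2 and Cltrn in the control library, and left no ratio, and its size was itself set on markers of other cell types, those of the proximal tubule included.

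Some lower genes were not on the list of proximal tubule markers, but several of them differed less without proximal tubule-positive cells. Kcnip4, a subunit of potassium channels, was at 106 and 15.9 CPM, and its log2 ratio of -2.41 was -2.01 without the proximal tubule-positive cells. Gpc5, a glypican, was at 165 and 47.4 CPM, and was highest in Slc14a2-led cells, at 495 and 111 CPM. Mmp7 was at 121 CPM (114 to 129) and 46.1 CPM (41.9 to 50.6), and its log2 ratio was -1.31 in all selected cells and -1.67 without proximal tubule-positive ones. Havcr1, the gene of kidney injury molecule 1, was at 310.5 and 81.7 CPM, with at least 5 UMIs in 81 control and 44 haplodeficient cells. Its log2 ratio of -1.86 became -0.85 without proximal tubule-positive cells, and that of C3 went from -1.31 to -0.36. Klk1, a kallikrein with near-identical relatives, was at 126 and 9.05 CPM, but 1 control cell held 46.9% of its UMIs. Its log2 ratio was -0.65 without the 3 highest cells of each library. Kcnip4, Gpc5, Mmp7 and Klk1 lay under the eligibility mean in the haplodeficient library, so their direction was in part set by that filter.

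Transport genes were lower more often than higher. Of 9 eligible water, urea and ion transport genes, 2 were higher and 7 lower (median -0.20), and 2 met the size rule downward. Aqp1 was at 216 CPM (207 to 226) and 73.04 CPM (67.7 to 78.7), a log2 ratio of -1.50. Outside the selected cells the log2 ratio of Aqp1 was -1.08 in thick ascending limb, -0.75 in proximal tubule and 1.07 in principal cells. Aqp1 was at 124 and 54.6 CPM in the free RNA, and 1 selected haplodeficient cell held 24.6% of its UMIs there. In the selected cells it met the size rule under each of the 15 alternatives and stood at -1.28 without proximal tubule-positive cells. Slc4a4, a basolateral bicarbonate transporter, was at 334 and 145 CPM, and its log2 ratio of -1.18 was -0.37 without those cells. Of 9 eligible genes of osmolyte handling and the tonicity response, 7 were lower and 2 higher, with a median of -0.37, and 1, Aqp1, met the size rule. Akr1b3, which makes sorbitol, was at 293 and 165 CPM, the taurine transporter Slc6a6 at 313 and 198 CPM, the inositol transporter Slc5a3 at 85.8 and 54.8 CPM, and Nfat5, the transcription factor of the tonicity response, at 476 and 372 CPM. Cryab and Hspb1, the small heat shock proteins of the list, were at 1819 and 2049 CPM and at 1017 and 1097 CPM. Akr1b3 was highest in Slc14a2-led cells, at 599 and 224 CPM, and in control cells 1 cell held 9.66% of its UMIs.

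**Figure D5:**
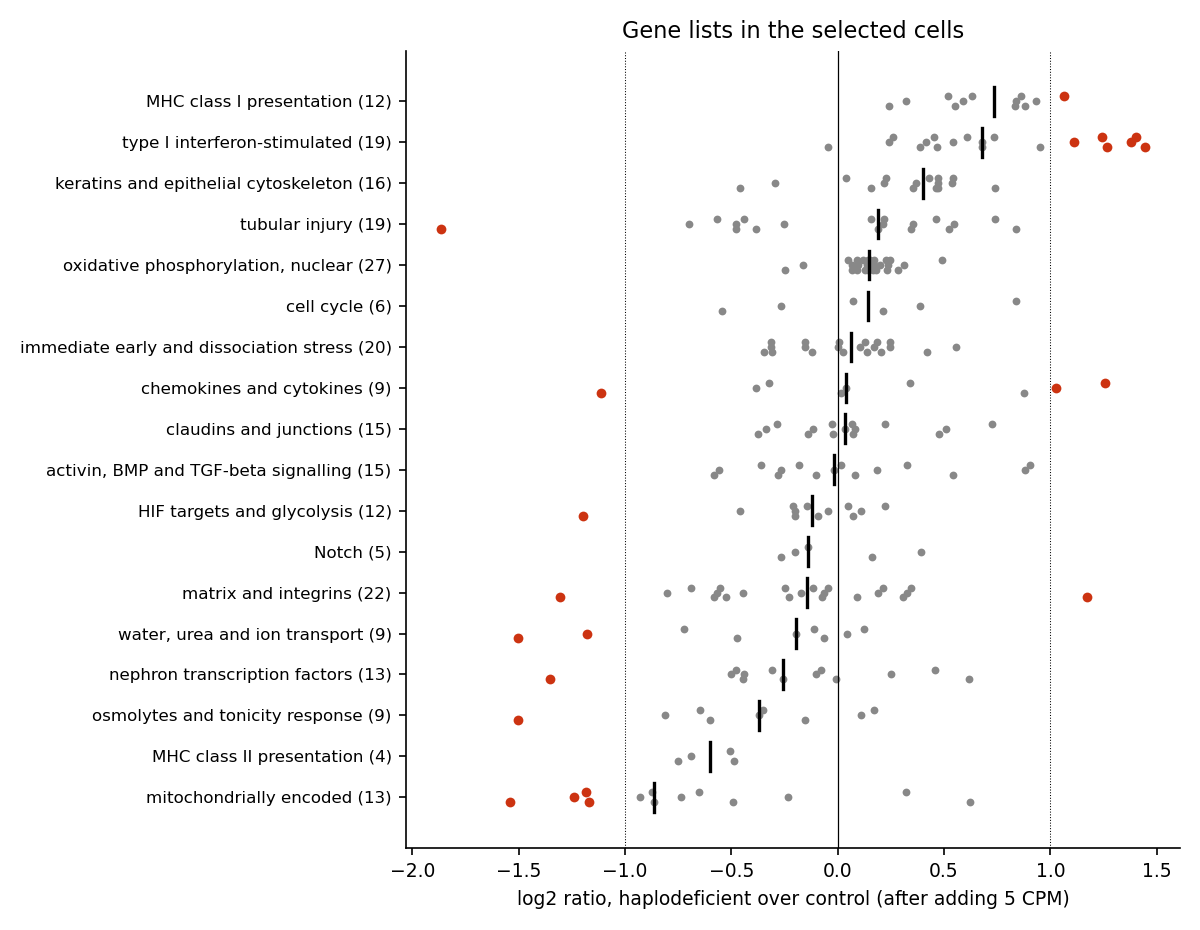
Log2 ratio of haplodeficient over control for each eligible gene (points) of 18 gene lists in the selected cells, with the number of eligible genes in parentheses. Black bars are list medians, red points meet the size rule, and dotted lines mark log2 ratios of -1 and 1. The MHC class I and interferon lists had the highest medians, and the mitochondrially encoded list had the lowest, at -0.87.

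Keratins and cytoskeletal genes were higher by small amounts, with 14 of 16 eligible genes higher, none past the size rule and a median of 0.40. Krt18 was at 799 and 1022 CPM, Krt19 at 266 and 371 CPM, S100a6 at 3419 and 4737 CPM and Vim, a filament of mesenchymal and injured epithelial cells, at 115 and 195 CPM. Tubular injury genes were split, with 11 of 19 eligible genes higher and a median of 0.19. Cdkn1a, the cell cycle inhibitor p21, was at 515 and 924 CPM and Lcn2, the gene of the injury marker lipocalin, at 1478 and 2129 CPM. In the other direction Cd44 was at 171 and 103 CPM, Itgb6 at 331 and 221 CPM and the transcription factor Sox9 at 125 and 88.7 CPM. Only Havcr1 met the size rule in this list. Among the 15 eligible claudins and junction genes, 8 were higher (median 0.04), with Cldn3 highest at 251 and 418 CPM.

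Of 9 eligible chemokines and cytokines, 6 were higher and 3 lower (median 0.04). The neutrophil attractants Cxcl5, at 62.8 (57.7 to 68.2) and 157 (149 to 165) CPM, and Cxcl2, at 240.06 and 495 CPM, met the size rule upward, and the monocyte attractant Ccl2, at 211 and 95.04 CPM, met it downward. Cxcl5 was detected in 54 control and 87 haplodeficient cells and was a gene of Psca-led cells in both libraries. Ccl2 was at 668 and 67.0 CPM in Fst-led cells and 217 and 152 CPM in Psca-led cells, was detected in only 68 and 42 cells, and had a log2 ratio of -0.41 when each cell was weighted alike. Pigr, which carries immunoglobulins across epithelia, was at 53.6 and 175 CPM, and Cntf at 42.8 and 109.7 CPM. Both met the size rule under each alternative, but Cntf lay under the eligibility mean in the control library. The direction of Cntf was thus in part set by that filter. Cxcl2 had a log2 ratio of 0.56 after subtraction of free RNA and 0.62 without Psca-led cells.

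Genes of smooth muscle and stroma were also among the higher ones. Acta2 was at 28.4 and 113 CPM, Tagln at 65.6 and 159.6 CPM and Sparc at 83.6 and 195 CPM, and all 3 met the size rule. Acta2 was detected in 34 and 50 selected cells, with 42.1% of the control UMIs in 1 cell, and 1 control cell held 70.3% of the Tagln UMIs. The 6 stromal markers, none at 0, summed to 71.0 and 182 CPM in selected cells and 159 and 426 CPM in free RNA, and the 6 endothelial markers, none at 0, to 46.4 and 149.8 CPM and 83.0 and 356 CPM. Over the groups the stromal sum ranged from 28.6 to 239.7 CPM in the control and from 160.3 to 229.8 CPM in the haplodeficient library. The part of stromal RNA in these differences was not tested. Without likely doublets the log2 ratio was 1.46 for Acta2, 0.67 for Tagln and 0.66 for Sparc, against 1.82, 1.22 and 1.17 with them. Meis2, a homeobox factor, was at 31.1 and 113 CPM, and its log2 ratio of 1.71 became 0.93 without likely doublets. Acta2 and Meis2 lay under the eligibility mean in the control library, so their direction was in part set by that filter. Matrix and integrin genes as a list were lower more often than higher (15 of 22 eligible, median -0.15), with 1 past the size rule each way.

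Signalling lists differed little. Of 15 eligible genes of activin, BMP and TGF-beta signalling, the pathway that follistatin acts on, 7 were higher and 8 lower (median -0.02) and none met the size rule. The BMP-responsive genes Id1, at 110.00 and 207 CPM, and Id3, at 283 and 535 CPM, were the highest, and Smad3, at 85.3 and 55.4 CPM, and Bmp4, at 69.9 and 45.9 CPM, the lowest. The 5 eligible Notch genes had a median of -0.14. Of 13 eligible nephron transcription factors 10 were lower (median -0.26). The orphan receptor Esrrg, at 523 and 201 CPM, met the size rule, with a log2 ratio of -1.35 that was -0.77 without proximal tubule-positive cells, and Pax8 was at 455 and 319.96 CPM. Immediate early genes had a median of 0.06 over 20 genes, and the 6 eligible cell cycle genes one of 0.14.

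Egln3, the targeted gene, was low in the selected cells, with 49 UMIs or 5.52 CPM (4.09 to 7.30) in control cells against 50 UMIs or 5.26 CPM (3.91 to 6.94) in haplodeficient cells, a CPM ratio of 0.953 (0.630 to 1.44). Other cells had 3.82 and 6.07 CPM. Of 12 eligible targets of hypoxia-inducible factors and glycolysis genes, 4 were higher and 8 lower (median -0.12). Ndrg1 alone met the size rule, at 402 and 172 CPM, and its log2 ratio of -1.20 was -0.02 without proximal tubule-positive cells. Slc2a1, the glucose transporter, was at 59.8 and 42.1 CPM and Ldha at 338 and 327 CPM.

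Nuclear and mitochondrial genes of respiration differed in direction. Of 27 nuclear genes of oxidative phosphorylation 25 were higher, by a median of 0.15, and none met the size rule. Of 13 mitochondrially encoded genes 11 were lower (median -0.87) and 4 met the size rule, among them mt-Nd3 at 1742 and 595 CPM and mt-Co3 at 10405 and 4615 CPM. The mitochondrial share of UMIs differed in the same direction in the other cells of the libraries, and in the free RNA mt-Co3 was at 50929 and 16499 CPM. After subtraction of the expected free RNA, which was estimated at 19.0% of the UMIs of selected control cells and 22.8% of those of haplodeficient cells, the list's median was -0.094 over the 11 genes with a level left in both libraries. Rpl29, a ribosomal protein gene with many processed copies in the genome, was at 163 and 521 CPM in selected cells and at 110.3 and 509 CPM in other cells.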

How the data were processed

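Single-cell RNA was measured in 1 kidney library per group with a droplet-based 3′ kit. The authors deposited unfiltered, raw UMI counts of each gene in each barcode. Cell Ranger version 4 is named per the file headers, and build mm10 per the submitters' processing notes. Cells had at least 500 UMIs, 200 genes and at most 50% mitochondrial UMIs. Library totals were 134190236 and 114668145 UMIs. Cells were selected by the rule above, without an annotation. UMIs were summed over selected cells per library, so depth sets the Poisson intervals, and shares have exact Clopper-Pearson intervals. Both cover counting error only. Genes were eligible with a mean of 50 CPM and 30 UMIs. Barcodes of 1 to 100 UMIs gave the profile of free RNA. Its share in selected cells was the median observed over expected level of markers of other cell types, leaving out markers above expectation, and can take too much of some genes. Doublets were the highest Scrublet scores (scanpy 1.11.5) at 0.8% per 1000 cells. They were kept, and left out as an alternative. The contrast was tested on simulated counts with counting error only, which cannot check spread between cells or animals. Genes named were the selection genes and Egln3, list genes past the size rule or the highest and lowest of a list, the 15 highest and 15 lowest ratios past the size rule without mt-, Gm and Rik genes, the 20 highest over other cells, and the 5 highest per leading gene. The selected cells and gene lists were chosen with earlier results of these data known. Other genes were named after their values were seen, as examples of a list or marker set. A few genes that this rule or the lists hold are not reported here one by one, but count in the lists' sums and medians.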

Additional observations from a re-analysis of the deposited data

How the results depend on the processing

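Of 43 named genes that met the size rule, 14 met it under all 15 alternatives and 2 changed direction under 1. For 9 of the 43, mt-Nd2 among them, the subtraction of free RNA took the whole level in a library, so it gave no ratio. With genes eligible from a mean of 10 CPM, 68 genes met it upward and 122 downward. Without cells positive for proximal tubule genes, an alternative added after the data were seen, 23 met it downward. With at most 25% mitochondrial UMIs the share of selected cells differed by 0.0621 percentage points over all cells and by 2.28 over cells without Ptprc.

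After subtraction of free RNA the median log2 ratio was -0.45 for osmolyte genes, 0.57 for interferon-stimulated genes and 0.53 for MHC class I genes, and turned for tubular injury genes (-0.051) and cell cycle genes (-0.0020). It also turned the log2 ratio of mt-Co3 (0.22), of whose level it took 93.0% in control and 81.6% in haplodeficient cells. No eligible MHC class II gene had a ratio left. Without proximal tubule-positive cells Ttc36 turned (0.20), and the medians were -0.32 (osmolytes), 0.10 (injury) and 0.53 (interferon). Without Psca-led cells, also an added alternative, the MHC class II median turned (0.44) and that of injury genes was 0.076. Without likely doublets the osmolyte median was -0.43 and the injury median 0.16. Without cells with Aqp2, uroplakin or Krt5 UMIs they were -0.25 and 0.13. Weighting cells alike gave 0.22 (injury) and 0.56 (interferon), weighting the leading groups alike 0.14 (injury), and leaving mitochondrial UMIs out of the total 0.15 (injury). The cause of these changes was not tested. Each group had 1 library, so differences between animals, preparations and genotypes cannot be told apart, and groups of 30 to 51 control cells (Slc4a11-led and Fst-led) rest on few cells.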
